A study of Mus musculus with 26 samples.

Results

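RNA sequencing of ESCs in which the Grb10 RNA was truncated (ESC Grb10 pA, 3 samples) was compared with that of the parental E14Tga2 ESCs (ESC WT, 3 samples) across all genes. These 6 samples, chosen by their labels alone, are part of a series of 26 samples. The series asked how RNAs that bind CTCF, the zinc finger protein that anchors chromatin loops, take part in the loops of ESCs and of neural progenitor cells (NPCs). E14Tga2 is a male mouse ESC line. All 6 cultures were grown in N2B27 medium with leukemia inhibitory factor, 3% serum, 3 µM CHIR99021, which inhibits GSK3, and 1 µM PD0325901, which inhibits MEK. The Grb10 pA line was homozygous and of single-cell origin, with the number of clones behind the samples not given, and was made with Cas9 and a donor that places eGFP, joined through a self-cleaving peptide, and an SV40 polyadenylation signal into the Grb10 coding sequence. The edited cells had also been selected with puromycin and sorted for eGFP before cloning. An effect of losing the RNA, of losing the GRB10 protein, of the inserted eGFP and of deriving a clone therefore cannot be told apart in this comparison. A similarly made line with truncated Podxl RNA (ESC Podxl pA, 3 samples), and the Grb10 pA and WT lines after 2 days of differentiation into NPCs (3 samples each), served as points of comparison.

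Grb10 encodes an adaptor protein that binds activated insulin and insulin-like growth factor receptors and dampens their signalling through PI3K, AKT and mTOR. The gene is imprinted: most tissues use the maternal copy, while neurons use the paternal one. The study chose it as a CTCF-bound RNA whose level rises when ESCs become NPCs.

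Grb10 (ENSMUSG00000020176.17) lies on the minus strand of chromosome 11, at chr11:11930508-12038683 in GRCm38/mm10. The insert sits at the end of exon 3 of 17 in the transcript Grb10-201 (chr11:11970423-11970642), an exon of 220 bases of which 26 belong to the 5′ UTR and 194 are coding. The guide is from the study's oligo list and the end of exon 3 from the GENCODE M21 transcript. Both are shown because they fix how much of the spliced Grb10 transcript lies upstream of the insert.
Grb10 guide: gcctgtgcacattctcagGT
Grb10 exon 3 end: gcaacgctcgcagcctgtgcacattctcAG
Capitals in the guide mark the bases beyond the end of the exon, in the following intron, and capitals in the exon mark the bases that follow the insert. The insert thus came after 192 coding bases, or 64 codons, which is 10.7% of the coding length of 1788 bases. In the spliced transcript it came after 507 of 5061 bases. Introns upstream of the insert are not counted in these lengths. The exonic part of the guide was found in 6 of 9 annotated Grb10 transcripts, and the other 3 do not contain it.

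Libraries held 2530435 to 5844773 counts in the 6 ESC samples, and 13268 of 55291 genes passed the filter on low counts. Levels are given below as normalized counts, which are counts rescaled to a common library size, and changes as log2 fold changes with the standard error (SE) of the fit. A gene was called where the p-value adjusted over all genes tested was at most 0.05 and the log2 fold change was at least 0.5 in size. ESC Grb10 pA replicate 2 stood apart from the other libraries. Over genes, its log levels correlated with those of the other libraries of its group at 0.957 and 0.965, against 0.991 between those libraries, its protein-coding genes held 84.1% of counts, and the ribosomal RNA entry CT010467.2 took 7.08% of counts against 2.66 to 4.44% elsewhere. ESC WT replicate 1 had 4.293% of its counts on another ribosomal RNA entry, CT010467.1. Many results that depend on either library are given with and without it, though not all. The summed level of 9 ESC markers was 19958.0 to 20733.5 in ESC WT and 22411.6 to 22944.4 in ESC Grb10 pA, while 8 neural progenitor markers summed to 163.0 to 194.1 and 100.9 to 140.1. Pou5f1 (log2 fold change 0.25, adjusted p = 0.16), Sox2 (0.20, 0.15), Nanog (0.08, 0.57) and Esrrb (0.01, 0.96), core factors of pluripotency, were not called. Of the 9 ESC markers 1 was called, Zfp42, a gene of chromosome 8 that was lower (−0.72). Of the 8 neural progenitor markers 4 were tested and 1 was called, Nes, which was lower, while Sox1 stood at 0.42 and was not called.

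Grb10 RNA was reduced in ESC Grb10 pA, and no other called gene averaging 100 or more normalized counts, with its libraries fully apart by group, fell as far. In ESC WT it measured 592.9, 586.2 and 548.8 normalized counts, and in ESC Grb10 pA it measured 157.4, 141.7 and 164.6. Every truncation library lay below every WT library, a 3.71-fold reduction (log2 fold change −1.89 ± 0.09 SE, adjusted p = 2.1e-13, edgeR quasi-likelihood test). ESC Podxl pA measured 606.4, 564.0 and 670.4 normalized counts, in the range of the WT libraries or just above it. In NPCs, where Grb10 is up-regulated, the level went from 3586.9, 3741.7 and 3798.1 in WT to 277.1, 244.1 and 243.3 in Grb10 pA. The reduction there was 14.48-fold (−3.86 ± 0.09, adjusted p = 4.9e-22) and exceeded that in ESCs by −1.96 ± 0.13 on the log2 scale (adjusted p = 1.1e-10 for the difference). The deposited table sums all exons of a gene. The remaining counts can therefore include reads from exons upstream of the insert or from transcripts without the targeted exon sequence, and they do not measure full-length RNA. Where these reads lie in the gene was not tested.

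**Figure D1:**
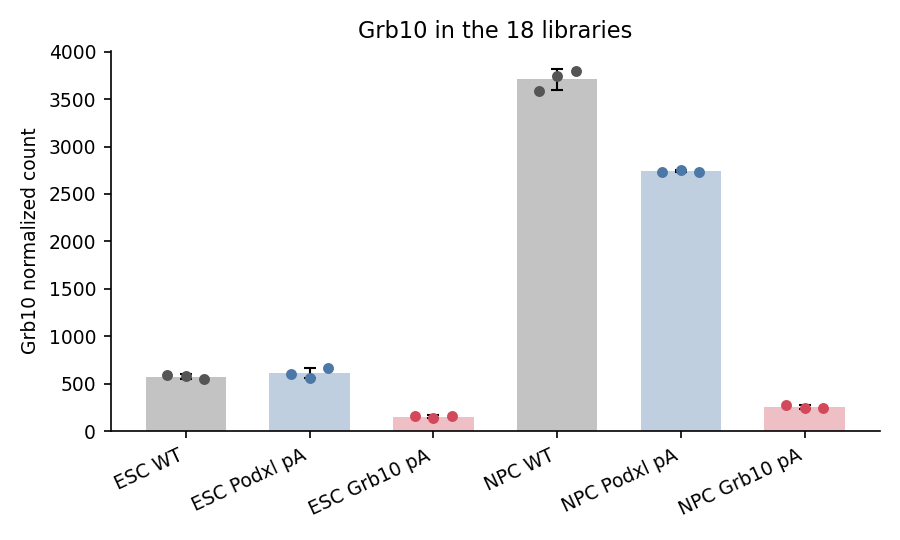
Grb10 RNA level (normalized counts) in the 18 libraries, by group along the horizontal axis. Points are libraries, bars start at 0 and give group means, and error bars give the SD over 3 libraries. The highest Grb10 pA library stands at 164.6 in ESCs and 277.1 in NPCs, below all WT and Podxl pA libraries.

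Among the genes within 1 Mb of Grb10, changes in ESCs were small or rested on few counts. Cobl, an actin nucleator, measured 1502.2, 1435.2 and 1383.7 normalized counts in WT and 1110.2, 1030.4 and 1081.8 in Grb10 pA, without overlap, but the change did not reach the fold threshold (−0.42, adjusted p = 7.0e-04). Ikzf1, a lymphoid transcription factor, stood at 7.1, 8.0 and 1.8 against 1.0, 0.0 and 1.1 normalized counts (−2.82 ± 0.89, adjusted p = 0.03). That call was lost when any of 5 of the 6 libraries was left out (adjusted p = 0.065 to 0.14), namely each one except ESC WT replicate 3. Ddc, an aromatic amino acid decarboxylase (−0.06, adjusted p = 0.86), and Fignl1, a DNA repair factor (0.03, adjusted p = 0.9), were not called in ESCs. In NPCs Ddc was reduced (−1.41, adjusted p = 9.3e-06), and the effects in the 2 cell types differed (−1.35, adjusted p = 0.002).

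Across the genome, 1206 of 13268 genes were dysregulated in ESC Grb10 pA (9.09%), with 598 up-regulated (4.51%) and 608 down-regulated genes (4.58%). Over all genes the fold changes had a log2 median of 0.01. Of the 1206 genes, 1136 were protein coding, and in 1147 the WT and truncation libraries did not overlap, which was also so for 28.2% of all genes tested. Compared with ESC Podxl pA in place of WT, 1318 genes were called (9.93%), 748 of them higher and 570 lower in Grb10 pA. ESC Podxl pA against the same ESC WT libraries gave 45 called genes (0.339%). Without ESC Grb10 pA replicate 2 the numbers of up- and down-regulated genes were 440 and 632.

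The down-regulated genes were concentrated on chromosome 8. This chromosome held 5.50% of the genes tested and 47.4% of those down-regulated: 288 of its 730 genes were called lower and 3 higher. Its median log2 fold change was −0.488, a ratio of 0.713, with an interquartile range of −0.700 to −0.272, while the medians of the other autosomes ran from −0.018 to 0.066. No other autosome had more than 28 down-regulated genes. Outside chromosome 8 there were 595 up- and 320 down-regulated genes, 7.30% of 12538 tested.

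**Figure D2:**
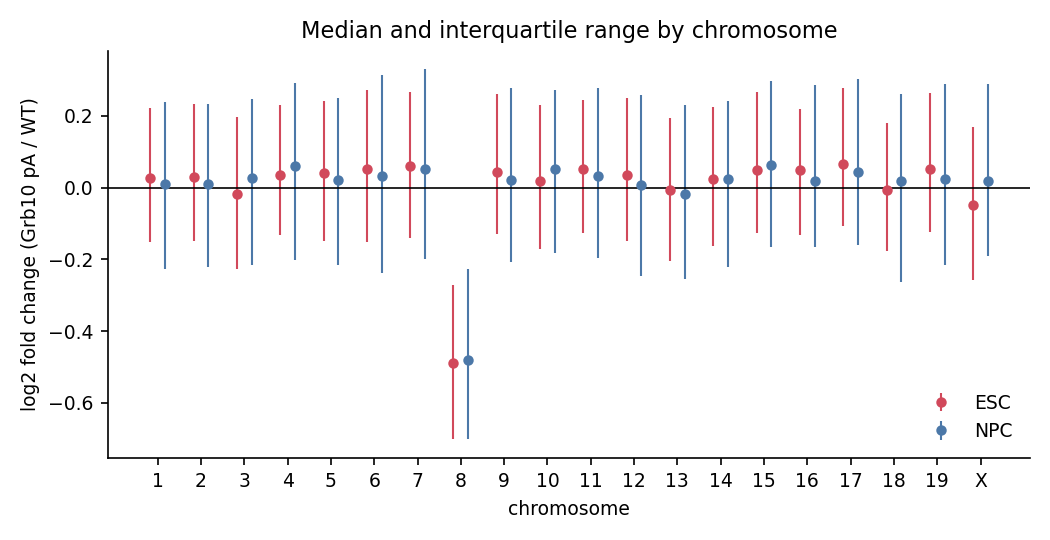
Median log2 fold change by chromosome, for ESC Grb10 pA against ESC WT and for NPC Grb10 pA against NPC WT, with lines for the interquartile range. Chromosome 8 lies at −0.488 in ESCs and −0.482 in NPCs, and the other autosomes lie between −0.019 and 0.066.

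The shift was shared by most genes of chromosome 8 and by all its stretches. Of 730 genes, 661 (90.5%) had a log2 fold change below 0, against 45.5% of the genes outside it. Among the 412 genes with an above-median level, 96.8% lay below 0 and the median was −0.515. When the genes were ordered along the chromosome and split into 10 stretches of 73 genes each, the median of every stretch fell between −0.566 and −0.384. In 4 classes of level, cut at the quartiles of all genes, the chromosome 8 medians were −0.421, −0.465, −0.476 and −0.552 from the lowest to the highest class. The genes spread about their median by an interquartile width of 0.428, close to the 0.395 of all other genes, and 57.1% of them lay within 0.25 of it.

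**Figure D3:**
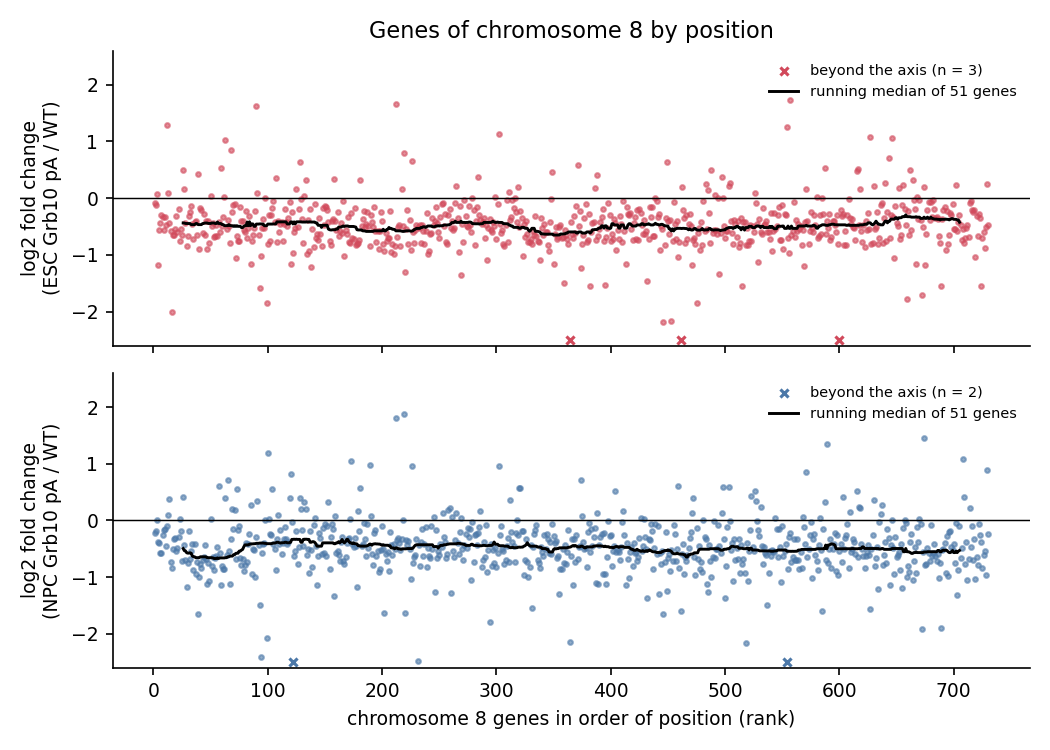
Log2 fold change of each tested gene of chromosome 8 by its rank along the chromosome, for Grb10 pA against WT in ESCs (upper panel) and NPCs (lower panel), with a running median over neighbouring genes as a line and crosses for genes beyond the axis. The line is not drawn for the outermost genes at each end. Where drawn, it stays below 0 in both cell types, around the overall medians of −0.488 and −0.482.

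All truncation libraries showed the shift. Each of the 9 pairings of a truncation with a WT library gave a chromosome 8 median of −0.542 to −0.396, whereas pairs of WT libraries gave 0.008 to 0.042 and pairs of truncation libraries −0.094 to 0.085. The share of all counts on chromosome 8 was 6.227, 6.308 and 6.418% in ESC WT and 4.394, 4.184 and 4.415% in ESC Grb10 pA. The means were 6.317% ± 0.096 (SD, n = 3) and 4.331% ± 0.127 (SD, n = 3), a ratio of 0.686 (exact permutation test, two-sided p = 0.1, the smallest that 3 against 3 allows). Chromosome 8 was singled out with its lower values in this line known, so this test adds no independent support. ESC Podxl pA held 6.344% ± 0.077 of its counts there (SD, n = 3).

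The same line showed the shift again after differentiation, in libraries made separately. In NPCs the chromosome 8 median was −0.482, and its share of counts was 6.448% ± 0.061 in WT and 4.571% ± 0.075 in Grb10 pA (SD, n = 3 each; exact permutation test, two-sided p = 0.1). Of 730 genes, 599 lay below 0 in both cell types. A difference between the NPC and the ESC effect was called for 38 chromosome 8 genes (5.21%), against 783 genes of all chromosomes (5.90%). With ESC Podxl pA as the reference the chromosome 8 median was −0.484, and for ESC Podxl pA against WT it was −0.011.

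The genes of chromosome 8 with the highest levels give its size in single transcripts. Eif4ebp1, the translation repressor that mTOR inactivates, went from 5019.1, 3995.0 and 4156.6 normalized counts in WT to 2847.1, 2089.8 and 2643.2 (−0.80, adjusted p = 9.5e-06). Cdh1, or E-cadherin, went from 4416.0, 4111.6 and 4075.1 to 2738.1, 2617.9 and 2656.5 (−0.65, adjusted p = 4.2e-07). In both genes every truncation library lay below every WT library. The amino acid transporter gene Slc7a5 (−0.64) and the NuRD subunit gene Gatad2a (−0.60) were also down-regulated. Cnot1, scaffold of the deadenylase complex, the replication helicase gene Mcm5, the tRNA synthetase gene Aars, the ribosomal protein gene Rpl13 and the chaperone gene Calr had adjusted p-values of at most 0.019 but log2 fold changes of −0.50 (after rounding) to −0.32, which did not reach the threshold. Leaving out ESC Grb10 pA replicate 2 brought Aars to −0.53 and Rpl13 to −0.52, past the threshold, and Cnot1 to −0.41. Cnot1 passed the threshold in 6 alternatives, among them those without ESC WT replicate 3 (−0.54), ESC Grb10 pA replicate 1 (−0.54) or ESC Grb10 pA replicate 3 (−0.56).

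A few genes of chromosome 8 fell further than their neighbours, and more stood above them. When its median was taken into the offsets of the model, so that each gene was measured against the chromosome, 37 of its genes were called, 27 higher and 10 lower (5.07%). Over all chromosomes, 916 of 13268 genes were called in that fit, so its genes were not called more often than others. Tubb3 (chr8:123411424-123422015), a neuronal tubulin, measured 667.2, 634.9 and 675.6 normalized counts in WT and 222.0, 223.8 and 226.5 in Grb10 pA (−1.55 ± 0.09, adjusted p = 5.8e-12), and the fall beyond the chromosome was −1.07 (adjusted p = 8.9e-09). Nqo1, a quinone reductase, went from 579.7, 532.7 and 615.8 to 290.7, 201.3 and 246.4 (−1.20, and −0.71 beyond the chromosome), and Piezo1, a mechanosensitive channel, from 856.4, 808.3 and 840.4 to 359.3, 360.6 and 396.7 (−1.16, and −0.68). Tubb3 and Piezo1 were low in Grb10 pA NPCs too (−1.89 and −0.93), while Nqo1 was not called there (−0.11) and its effects in the 2 cell types differed (1.09, adjusted p = 1.3e-04). Mt2, a metallothionein, was called at −1.17 (adjusted p = 0.0042) but not beyond the chromosome (−0.69, adjusted p = 0.11), with 790.2, 631.8 and 532.5 against 378.5, 132.0 and 335.9 normalized counts, replicate 2 being the lowest.

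At the other end, Insr, the insulin receptor gene of chromosome 8, was not called (212.6, 170.9 and 164.8 against 168.5, 178.7 and 171.3 normalized counts; −0.09, adjusted p = 0.66). The only genes of the chromosome called higher, named here after their values were seen, were Clgn, a chaperone of the testis, at 0.58 (adjusted p = 0.0029), Ushbp1 at 1.13 (adjusted p = 0.005) and the pseudogene Stambp-ps1 at 1.65 (adjusted p = 0.011). Clgn fell short without ESC WT replicate 1 (0.47) or ESC Grb10 pA replicate 3 (0.49), or with only the groups compared in the fit (0.55, adjusted p = 0.059), and Stambp-ps1 without ESC WT replicate 1 (adjusted p = 0.061) or ESC Grb10 pA replicate 1 (adjusted p = 0.083).

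CTCF, whose binding to RNA is the subject of the series, is itself encoded on chromosome 8. Ctcf (chr8:105636568-105682922) measured 1080.1, 1067.8 and 1088.5 normalized counts in ESC WT and 717.6, 624.7 and 732.6 in ESC Grb10 pA, with no overlap (−0.64 ± 0.07, adjusted p = 1.0e-06). Measured against the chromosome, the change was −0.15 (adjusted p = 0.2). The log2 fold change was −0.71 against ESC Podxl pA and −0.44 in NPCs (adjusted p = 5.0e-05), where it lay under the fold threshold. These values are of RNA. By Western blot the study saw CTCF and RAD21 protein unchanged in the truncation lines. It also reported no significant change of CTCF occupancy at the Grb10 loop anchors in NPCs. Of 19 genes for CTCF, cohesin and its regulators, 1 was called up and 2 down (15.8%, against 9.09% of all genes; median −0.01). The other lower gene, Mau2, a cohesin loader subunit (−0.70, adjusted p = 1.2e-06), also lies on chromosome 8, where 39.5% of genes were called lower. Hdac8, the cohesin deacetylase, measured 24.4, 25.6 and 30.8 normalized counts in WT and 45.4, 53.1 and 49.7 in Grb10 pA (0.89, adjusted p = 0.0026), and Rad21, the cohesin kleisin, was not called (−0.12, adjusted p = 0.35).

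The largest rises outside chromosome 8 came from genes of varied function. Tex13b, an X-linked testis-expressed gene, measured 25.4, 23.2 and 32.6 normalized counts in ESC WT and 175.6, 161.0 and 187.9 in ESC Grb10 pA (2.75 ± 0.20, adjusted p = 5.6e-10), and rose again in NPCs (3.13). Tlx2, a homeobox gene, went from 121.0, 114.2 and 143.1 to 280.6, 545.8 and 331.5 (1.61, adjusted p = 3.0e-07), and Ldhb, a lactate dehydrogenase subunit, from 254.3, 209.3 and 228.2 to 594.4, 714.8 and 621.0 (1.48, adjusted p = 1.4e-10). Truncation and WT libraries did not overlap in any of these genes. ESC Podxl pA against the same WT libraries gave 0.79 for Tex13b and 0.81 for Tlx2, and the difference between the truncation lines was 1.96 and 0.80. Cbs, an enzyme of the transsulfuration pathway, went from 158.7, 140.6 and 157.6 to 347.2, 442.8 and 377.9 (1.35, adjusted p = 6.4e-08). The transglutaminase gene Tgm2 (1.53), the neuronal calcium sensor gene Hpcal1 (1.39), the protease inhibitor gene A2m (1.28), the protease gene Htra1 (1.28), the pro-apoptotic gene Bmf (1.27), the RNA-binding protein gene Rbm47 (1.24) and the unnamed gene Gm32885 (1.56) completed the group, together with Gm37194. The last measured 68.1, 215.6 and 68.8 normalized counts in WT and 258.4, 663.3 and 221.0 in Grb10 pA (1.54, adjusted p = 0.0026; 0.90 without ESC Grb10 pA replicate 2 and 2.43 without ESC WT replicate 2), and in each group its highest library was also the one with the highest share of counts on the Gm23935 entry, 2.19% in ESC WT replicate 2 and 4.08% in ESC Grb10 pA replicate 2; the part of that entry in the change was not tested.

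**Figure D4:**
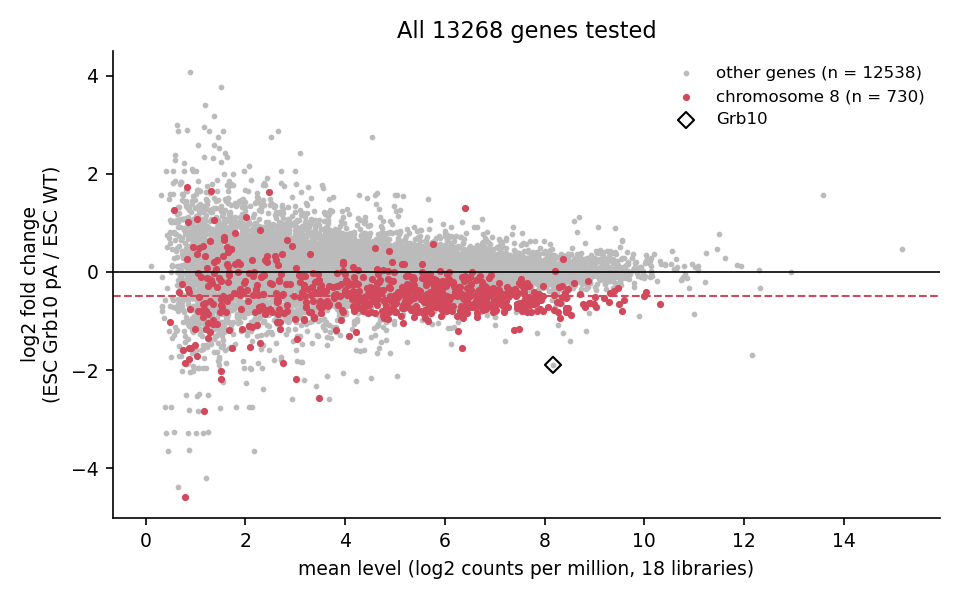
Mean level over 18 libraries (log2 CPM) against the log2 fold change of ESC Grb10 pA over ESC WT for every gene tested, with the 730 genes of chromosome 8 in red, their median as a dashed line and Grb10 as a diamond. The chromosome 8 genes form a band around −0.488 at all levels, and Grb10 lies at −1.89.

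Among the falls outside chromosome 8, Lefty2, a Nodal antagonist, went from 1228.6, 1158.1 and 1251.5 normalized counts to 434.0, 500.7 and 438.7 (−1.41 ± 0.10, adjusted p = 1.4e-10). Mest, a paternally expressed imprinted gene, went from 908.2, 809.9 and 860.3 to 309.8, 334.9 and 327.1 (−1.41 ± 0.11, adjusted p = 8.5e-10). Rhob, a small GTPase, went from 425.1, 396.1 and 447.4 to 133.2, 186.8 and 142.5 (−1.47, adjusted p = 8.6e-10). In each of these the truncation libraries lay well below the WT libraries. Gm24265 was called at −1.18 (adjusted p = 0.024), from 346.8, 155.7 and 163.0 to 89.8, 124.0 and 88.4, but the call was lost without ESC WT replicate 1 (−0.68, adjusted p = 0.25), ESC Grb10 pA replicate 1 (adjusted p = 0.065) or replicate 3 (adjusted p = 0.08), and with DESeq2 (−1.15, adjusted p = 0.1).

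The mitochondrial genome gave further large falls, and several of the calls depended on single libraries. Of its 7 protein-coding genes tested, 5 were down-regulated in ESCs and none up (median −1.08), while in NPCs 3 were up-regulated and none down (median 0.63). In mt-Nd1, a complex I subunit, the values were 2552.8, 1931.2 and 1305.9 normalized counts in WT and 1062.7, 542.6 and 897.3 in Grb10 pA (−1.21, adjusted p = 0.0029). The WT libraries thus spread widely, with replicate 1 the highest, and ESC Grb10 pA replicate 2 was the lowest, although the groups did not overlap. Without ESC Grb10 pA replicate 2, 5 of the 7 genes were down-regulated and none up (median −0.84). They were not the same 5, since mt-Co1 was no longer called. Without ESC WT replicate 1, mt-Nd2 (−1.25 to −0.93, adjusted p = 0.084), mt-Nd4 (−1.08 to −0.78, adjusted p = 0.076), mt-Cytb (−1.08 to −0.80, adjusted p = 0.074) and mt-Co1 (−0.89 to −0.65, adjusted p = 0.15) were no longer called. The call of mt-Co1 was also lost without ESC WT replicate 2 (adjusted p = 0.056) or ESC Grb10 pA replicate 2 (−0.58, adjusted p = 0.1), with DESeq2 (adjusted p = 0.07) or with only the groups compared (adjusted p = 0.056). ESC Podxl pA against WT gave −0.81 for mt-Nd4 and −0.76 for mt-Cytb. Of 78 nuclear genes for respiratory chain subunits, 1 was called up and none down (1.28%, against 9.09% of all genes, median 0.06). Without ESC Grb10 pA replicate 2, none of them was called up and 2 were called down (median 0.04).

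Genes of signalling around GRB10 included those of insulin-like growth factors, the pathway that GRB10 acts on, and also other receptors such as Kit. Called shares were 33.3% (receptors and ligands), 28.6% (IGF binding), 13.3% (adaptors) and 6.90% (PI3K, AKT and mTOR), against 9.09% of all genes. Of 6 receptors and ligands tested, 2 were called up, Igf1r and Kit. The median was 0.42, and 0.10 without ESC Grb10 pA replicate 2, the only ESC library of the comparison with Igf2 counts. Igf1r, a receptor that GRB10 binds, measured 152.6, 141.4 and 121.3 normalized counts in WT and 190.7, 202.9 and 215.5 in Grb10 pA (0.53 ± 0.15, adjusted p = 0.018). That call was lost without ESC WT replicate 2 (adjusted p = 0.057), ESC WT replicate 3 (0.47) or ESC Grb10 pA replicate 3 (0.48). Kit, the stem cell factor receptor, went from 1242.8, 1369.7 and 1506.9 to 2118.4, 1864.4 and 2175.8 (0.59, adjusted p = 2.2e-05), without overlap, and was not called in NPCs (0.00). Igf2r, the clearance receptor for IGF2, was at 0.30 (adjusted p = 0.041), under the fold threshold. Downstream, 29 genes of the PI3K, AKT and mTOR pathway had a median of 0.01, with 1 called up and Eif4ebp1 called down. The gene called up was Ddit4, an inhibitor of mTORC1 that is induced by stress, at 1691.3, 1526.3 and 1387.4 normalized counts in WT and 2431.3, 3442.2 and 2886.3 in Grb10 pA (0.92, adjusted p = 6.7e-06). Among 15 adaptor partners, Gab1, a docking protein encoded on chromosome 8, was called down (−0.63), and Gigyf1, a GRB10-interacting protein, was called up (0.52, adjusted p = 0.0023). Gigyf1 fell short without ESC WT replicate 2 or 3 (0.48 each) or ESC Grb10 pA replicate 2 (0.34), or with chromosome 8 left out (0.50 after rounding). Of 7 genes for proteins that bind IGFs or the Igf2 RNA, 2 were called up, Igfbp2 from 1113.7, 948.8 and 961.7 to 1669.3, 3063.9 and 1824.4 (1.11, adjusted p = 4.6e-06; 1.35 in NPCs) and Igf2bp2 (0.58, adjusted p = 2.5e-04).

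Many glycolysis and hypoxia genes were up-regulated in the Grb10 pA line. Of 24 tested, 10 were called up and none down, with a median log2 fold change of 0.42, against 4.51% up-regulated and a median of 0.01 over all genes. Slc2a3, the glucose transporter GLUT3, measured 10452.2, 10339.7 and 9412.7 normalized counts in WT and 17323.7, 16481.8 and 17886.0 in Grb10 pA (0.77 ± 0.07, adjusted p = 4.0e-08). Txnip, an inhibitor of glucose uptake that responds to glucose, went from 504.5, 485.6 and 508.9 to 1104.1, 959.6 and 986.8 (1.03 ± 0.09, adjusted p = 9.5e-09), and Bnip3, a mitophagy receptor, from 308.2, 298.7 and 311.5 to 652.0, 455.6 and 616.6 (0.92, adjusted p = 1.4e-05). All truncation libraries exceeded all WT libraries for the 3 genes. Hexokinase genes Hk1 (0.65) and Hk2 (0.63), the phosphofructokinase gene Pfkl (0.58), the aldolase gene Aldoc (0.78), Pgk1 (0.59), Gpi1 (0.51) and Egln3 (0.71), a HIF prolyl hydroxylase, were the others. Without ESC Grb10 pA replicate 2, 7 were called (median 0.35), since Hk2 (0.50 after rounding), Pfkl (0.35) and Gpi1 (0.46) no longer reached the fold threshold. Gpi1 also fell short without ESC WT replicate 2 (0.47) or replicate 3 (0.42), with no filter on low counts (0.49), with only the groups compared (0.50 after rounding) or with chromosome 8 left out (0.49). In NPCs 18 of the 24 were up-regulated (median 0.63), and the effect was larger there than in ESCs for Aldoc (difference 1.26, adjusted p = 0.0047) and Txnip (difference 1.15, adjusted p = 1.7e-06).

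Of 24 naive and core pluripotency factors, 2 were called up and 2 down (16.7%, against 9.09% of all genes; median 0.18). The lower ones, Klf2 and Zfp42 (also called Rex1), lie on chromosome 8. Klf2 went from 1484.9, 1226.8 and 1195.4 normalized counts to 676.2, 769.6 and 787.9 (−0.81, adjusted p = 5.0e-07), and Zfp42 from 1136.0, 1284.3 and 1456.2 to 716.6, 759.9 and 869.7 (−0.72, adjusted p = 3.9e-05). Against the chromosome these were −0.32 and −0.23, under the fold threshold. Gbx2, a target of LIF signalling, rose from 85.4, 87.9 and 86.9 to 132.2, 130.4 and 133.7 (0.61, adjusted p = 0.0086), and Dppa5a was called at 0.65, but at 0.45 without ESC Grb10 pA replicate 2. Of 11 genes of the LIF and STAT3 pathway, Gbx2 and the feedback inhibitor gene Socs3 (0.84, adjusted p = 5.1e-05) were up-regulated (18.2% called). None of 12 formative genes was called (median −0.08).

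Called genes of the BMP and ERK lists were mostly lower. Of 12 genes of the BMP pathway, 4 were called down and 1 up (median −0.13), against 4.58% down and 4.51% up over all genes. Id3, an inhibitor of differentiation and a direct BMP target, measured 17.3, 16.0 and 19.9 normalized counts in WT and 2.0, 6.4 and 1.1 in Grb10 pA (−2.58 ± 0.46, adjusted p = 2.7e-04), and Id1 18.3, 27.2 and 41.7 against 7.1, 12.9 and 12.2 (−1.38, adjusted p = 0.0077). Both rest on few counts, and Id1 was lost without ESC Grb10 pA replicate 1 (adjusted p = 0.052). The ligand gene Bmp4 went from 178.0, 147.0 and 117.7 to 74.7, 70.8 and 68.5 (−1.07, adjusted p = 4.1e-05), while Bmp7 rose (0.59, adjusted p = 0.014). Smad1, a signal transducer encoded on chromosome 8, was called down at −0.56, and at −0.48 without ESC Grb10 pA replicate 3 it was not. Of 17 genes of FGF and ERK feedback, 3 were down-regulated and none up (17.6% called, against 9.09% of all genes; median −0.18), these being the feedback inhibitor gene Spry4 (−1.14, adjusted p = 8.1e-06), Myc and Jun (−0.99, adjusted p = 0.0049). Myc stood at 50.9, 49.5 and 36.2 normalized counts in WT and 20.2, 25.8 and 8.8 in Grb10 pA (−1.42, adjusted p = 0.0023). None of 16 WNT genes was called (median −0.02).

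Among 36 other imprinted genes, 3 were called up and 3 down (16.7%, against 9.09% of all genes; median 0.12). Besides Mest, the antisense transcript Kcnq1ot1 was lower (−0.66, adjusted p = 2.0e-04), and ESC Podxl pA against WT gave −0.58 for it. Snrpn, a splicing protein gene of the Prader-Willi region, went from 202.4, 214.0 and 208.3 normalized counts to 435.0, 418.6 and 324.9 (0.91, adjusted p = 1.0e-06), and Peg3, a zinc finger gene, from 239.0, 266.8 and 251.8 to 401.7, 428.3 and 380.1 (0.67, adjusted p = 2.0e-04). Both were higher in every truncation library than in any WT library. None of 12 genes for DNA methylation was called (median −0.03). Of 16 germline genes that methylation silences, 4 were up-regulated and none down (25% called; median 0.18), among them Dazl (0.83, adjusted p = 4.1e-04), Taf7l (0.71, adjusted p = 0.0042) and Brdt (1.41, adjusted p = 0.0069; not called without ESC WT replicate 2, adjusted p = 0.085, or ESC Grb10 pA replicate 1, adjusted p = 0.059). In NPCs 8 of these 16 were up-regulated and 1 down, against 7.90% up and 8.64% down over all genes.

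**Figure D5:**
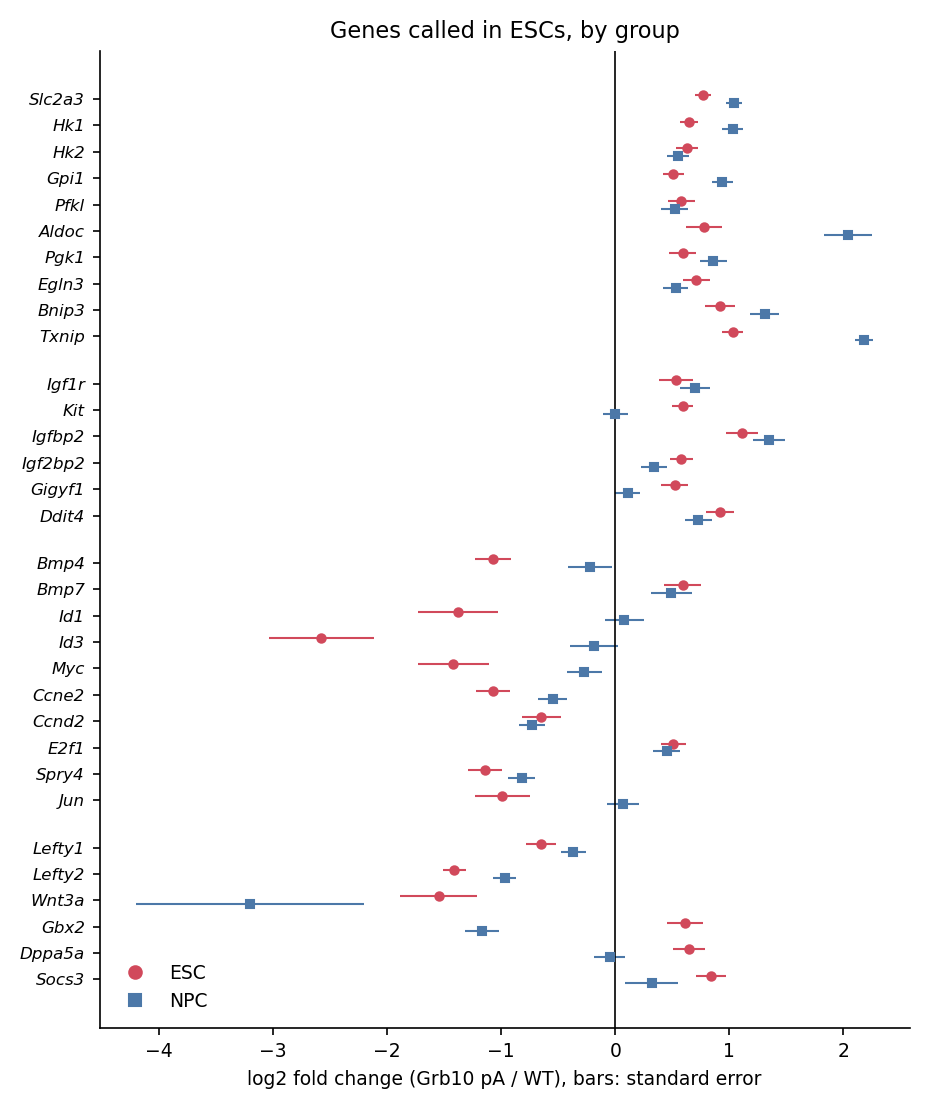
Log2 fold change of genes called in ESCs, grouped from top to bottom as glycolysis and hypoxia, growth factor and mTOR signalling, BMP, ERK and cell cycle, and Nodal, WNT, pluripotency and LIF, in ESCs (circles) and NPCs (squares) with SE bars. The 10 glycolysis and hypoxia genes lie above 0 in both cell types, while Id1, Id3, Bmp4 and Jun lie below 0 beyond their SE in ESCs and between −0.22 and 0.08 in NPCs.

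Stress and growth lists had called shares of 20% (amino acid and ER stress response), 17.4% (cell cycle), 11.5% (cholesterol synthesis and uptake), 7.69% (p53 targets) and 5.88% (heat shock), against 9.09% of all genes. Of 25 genes of the amino acid and ER stress response, 1 was called up, the transcription factor gene Ddit3 (1.04, adjusted p = 5.5e-05), and 4 down (median −0.11), namely Atf5 (−0.79), the cystine transporter gene Slc7a11 (−0.59) and, on chromosome 8, Herpud1 (−0.80) and Slc7a5. Of 23 cell cycle genes, E2f1 was called up and Myc, Ccne2 (−1.07, adjusted p = 1.3e-05) and Ccnd2 were called down (median −0.13). E2f1 (0.51) fell short without ESC WT replicate 2 (0.47) or 3 (0.49) or ESC Grb10 pA replicate 2 (0.33), with no filter on low counts (0.49), with only the groups compared (0.50 after rounding) or with chromosome 8 left out (0.48). Ccnd2 (−0.65) was not called without ESC WT replicate 1 (−0.49) or ESC Grb10 pA replicate 3 (adjusted p = 0.052), or with only the groups compared (adjusted p = 0.06). Of 26 p53 targets, Dcxr was called up (0.95) and Perp down (−0.72), with a median of 0.08. Of 26 genes of cholesterol synthesis and uptake, 3 were called down and none up (median 0.01), among them the chromosome 8 genes Mvd (−0.56) and Msmo1 (−0.55), both enzymes of sterol synthesis. Mvd was at −0.46 without ESC WT replicate 1 or ESC Grb10 pA replicate 1, and Msmo1 at −0.41 without ESC Grb10 pA replicate 2. The only one of 17 heat shock genes called, Dnajb1 (−0.66), also lies on chromosome 8.

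ESCs and NPCs of the Grb10 pA line shared part of their dysregulated genes, in libraries that are separate in the 2 cell types. In NPCs 2195 genes were called (16.5%), 1048 up (7.90%) and 1147 down (8.64%). Of the genes up-regulated in ESCs, 201 were also up-regulated in NPCs, which is 33.6% of the ESC and 19.2% of the NPC list, and of those down-regulated 283 were shared (46.5% and 24.7%). On chromosome 8 the shared down-regulated genes numbered 181 (62.8% and 57.6%), and outside it 102 (31.9% and 12.2%). In each direction 12 genes called in ESCs were called the opposite way in NPCs.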

How the data were processed

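Gene counts for ESC and NPC WT, Podxl pA and Grb10 pA samples were deposited by the authors as 1 table of whole-number counts, without strand, although the library kit was directional, so antisense partners cannot be separated. Per the labels, RNA was depleted of rRNA and reads were aligned to mm10 with STAR; the study's methods name featureCounts, and the gene annotation is not given in the sources used here. Of 21 columns, 18 were matched to samples and 3 matched none and were not used. All 18 libraries were fitted together with the edgeR 4.0.16 quasi-likelihood test (TMM factors, filterByExpr, 6 groups), with Benjamini-Hochberg adjustment, in R 4.3.3. The test was checked on simulated data. Positions came from GENCODE M21 (GRCm38), and 240 tested genes had none. Library pair medians used a pseudocount of 1. The study calls its replicates biological but the labels give no separate origins, so p-values may cover technical spread only.

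Members and lists were chosen with earlier results of these data known. Named were Grb10 and genes within 1 Mb, the 12 largest rises and falls among called genes averaging 100 or more normalized counts with libraries fully apart, the 10 highest genes of chromosome 8, and called members of 34 gene lists; some are not reported here. Count totals ranged from 1907505 to 8845087 over the 18 libraries, and few counts limit the precision of low genes. Alternatives comprised RLE factors, DESeq2 1.42.0, other filters and thresholds, a replicate block, and leaving out each replicate.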

Additional observations from a re-analysis of the deposited data

Results flagged for a closer look

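For 38 named genes the effect of Grb10 pA differed between NPCs and ESCs by the interaction term of the edgeR model, adjusted over all genes tested (783 genes, 5.90%). Of 108 named genes, 93 were called in ESCs, and the ESC effect is part of this difference. Naming thus favoured genes with a large ESC effect, so the 38 cannot be weighed against the 5.90%. It also favoured changes that are smaller in NPCs. Values are the NPC minus the ESC log2 fold change. Grb10 itself (−1.96) fell further in NPCs, as did Klf2 (−0.73), while Ddc (−1.35) fell in NPCs and was not called in ESCs.

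Glycolysis and hypoxia genes Txnip (1.15) and Aldoc (1.26) rose further in NPCs, and the pluripotency genes Esrrb (0.97) and Nanog (0.58) had larger values in NPCs. Several rises of the ESC line were smaller in NPCs, namely Ldhb (−0.93), Bmf (−0.93), Hpcal1 (−0.81), Rbm47 (−1.18), Tgm2 (−0.99), Kit (−0.58), Tfap2c (−0.69) and Lamb1 (−0.77). Others had a negative sign in NPCs, namely Gbx2 (−1.78), Dppa5a (−0.70), Gm37194 (−1.74), Gata2 (−2.49), Hdac8 (−1.26), Lama1 (−0.97) and the chromosome 8 gene Clgn (−1.26).

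Falls of the ESC line that did not reach the same size in NPCs were the BMP and ERK genes Id1 (1.46), Id3 (2.39), Bmp4 (0.85), Jun (1.07) and Myc (1.14), the imprinted genes Mest (0.74) and Kcnq1ot1 (0.66), and Rhob (1.08), Gm24265 (1.83) and, on chromosome 8, Nqo1 (1.09) and Mt2 (1.30). Mitochondrial genes had falls in ESCs and log2 fold changes above 0 in NPCs, with differences of 1.75 for mt-Co1, 1.37 for mt-Cytb, 1.31 for mt-Nd1, 1.75 for mt-Nd2 and 1.71 for mt-Nd4. The mitochondrial share of counts was 0.431, 0.420 and 0.273% in ESC WT, 0.260, 0.106 and 0.228% in ESC Grb10 pA, and 0.226 to 0.801% in the 6 NPC libraries of the comparison. Its part in these values was not tested.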

How the results depend on the processing

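The number of genes called in ESC Grb10 pA followed the thresholds. It was 784 (353 up) at an adjusted p of at most 0.01, 2016 (1025 up, 991 down) with no fold threshold, and 314 (191 up, 123 down) at a log2 fold change of at least 1. These 3 thresholds gave 877, 2178 and 369 genes against ESC Podxl pA; the first and last gave 314 and 299 for the difference between NPCs and ESCs, and the last 2 gave 3727 and 623 in NPCs. Fitting only the groups compared left 392 genes up, and leaving out chromosome 8 or taking its median into the offsets left 336 or 318 down. The chromosome 8 median was −0.32 with no filter on low counts, which adds many genes with few counts, and −0.40 for ESC Grb10 pA replicate 2 against ESC WT replicate 3. DESeq2 called 1107 genes. Leaving out single replicates gave 1007 to 1261 genes (440 to 667 up, 508 to 632 down), 534 to 943 for the difference and 1211 to 1311 against ESC Podxl pA.

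Replicate numbers did not pair the samples: the deviations of same-numbered ESC libraries correlated at −0.22, −0.12 and 0.25 over genes. A fit with a replicate block called 1187 genes (591 up, 596 down) and gave Grb10 −1.90. Without ESC Grb10 pA replicate 2 and ESC WT replicate 1, chosen after seeing the data, 950 genes were called, Grb10 was −1.84 and the chromosome 8 median −0.53. Of 93 named genes called, 35 lost the call under at least 1 alternative, 16 of them with the chromosome 8 median in the offsets and 9 without ESC Grb10 pA replicate 2, and none changed direction. Genes with few counts, such as Ikzf1 and Id3, are limited by depth.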

Other observations

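Lists of genes of other cell types had called shares of 36.4% (trophoblast), 15% (extraembryonic endoderm), 25% (mesoderm and caudal epiblast), 12.5% (neural progenitor) and 75% (feeder fibroblast, 4 genes tested) in ESC Grb10 pA, against 9.09% of all genes. Of 11 trophoblast genes, 3 were called up and 1 down (median −0.10), among them Tfap2c, a factor also used in germ cells, at 346.8, 275.5 and 304.3 normalized counts in WT and 484.4, 550.6 and 533.7 in Grb10 pA (0.76, adjusted p = 3.5e-06), Gata2 (1.28, adjusted p = 0.0015) and, lower, the keratin gene Krt8 (−1.07, adjusted p = 1.4e-04). The summed level of 5 trophoblast markers was 295.5 to 360.0 in WT and 506.7 to 587.7 in Grb10 pA, without overlap. Tfap2c is among these markers and made up most of that sum, so the sum largely repeats its rise. Of the 4 markers tested, 1 was called. Of 20 extraembryonic endoderm genes, 3 were called up and none down (median 0.04), among them the laminin genes Lama1 (0.80, adjusted p = 5.0e-05) and Lamb1 (0.93, adjusted p = 1.2e-05), and the summed level of 8 markers was 59.8 to 70.3 in WT and 50.8 to 78.7 in Grb10 pA. Without ESC Grb10 pA replicate 2, 2 of the 20 genes were called up and none down (median 0.10). Of 12 mesoderm and caudal epiblast genes, 3 were called down and none up (median −0.26), namely Lefty2, Lefty1 (−0.65, adjusted p = 0.0014; −0.50, just short of a call, without ESC Grb10 pA replicate 1) and Wnt3a, at 32.5, 31.9 and 41.7 against 7.1, 19.3 and 11.1 (−1.55, adjusted p = 0.0021). Of 8 neural progenitor genes, only the filament gene Nes was called, at −0.96 (adjusted p = 1.2e-04). Feeder fibroblast markers summed to 38.0 to 45.8 in WT and 33.3 to 37.0 in Grb10 pA, with Col3a1, Dcn, Lum and Postn at 0 in all 6 libraries, and 2 of 4 genes tested were called up and 1 down (median 1.01). Without ESC Grb10 pA replicate 2, 1 of these 4 genes was called up and 1 down (median 0.82).

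Of 10 cadherin and mesenchymal transition genes, Cdh1 and Cdh3, or P-cadherin, were called down (median −0.48), and both lie on chromosome 8. Cdh3 (−0.97) was not called without ESC WT replicate 1 (−0.70, adjusted p = 0.054). Of 77 cytosolic ribosomal protein genes, 2 were called up and 2 down (5.19%, against 9.09% of all genes, median 0.12). Without ESC Grb10 pA replicate 2, 1 of them was called up and 2 down (median −0.00). Of 18 Hox genes 1 was called up (median −0.63), of 9 clustered protocadherins 1 was called down (median −0.54), of 5 histone genes 1 was called up (median 0.01), and none was called of 3 two-cell-like (median 0.00) or 4 Y chromosome genes (median −0.15).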
